A study of Mus musculus with 3 samples.

Results

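The genes described here are the D-type cyclins Ccnd1, Ccnd2 and Ccnd3, their kinases Cdk4 and Cdk6, the pocket protein genes Rb1, Rbl1 and Rbl2, and the transcription factor genes E2f1 and E2f2. They were chosen by name, with earlier results of these data known, as the core of the machinery that carries cells from G1 into S phase. Probes were assigned to them through the RefSeq transcript given for each probe on the array. All 10 genes were found, with 19 probes among them, out of 22911 genes that could be named in this way. Expression was measured on 1-colour Agilent arrays in 3 tumours from the spleens of male mice, per the labels. The first tumour had the genotype p53+/−, heterozygous for the p53 gene, and the other 2, numbered 2 and 3, had the genotype LSD1 × p53+/−. All 3 therefore share the loss of 1 p53 allele, and there was no p53 wild-type or tumour-free spleen. Whether the tumour cells kept the other p53 allele cannot be read from the labels. Below, p53 tumour stands for the first, and LSD1 tumour 2 and LSD1 tumour 3 for the others. The growth protocol gives an age of 10 weeks, and no treatment was applied. LSD1 is a histone demethylase, but whether its gene was deleted, added or altered, in which cells, or whether the numbers mark animals or lines, cannot be read from the labels. No pooling of animals is stated.

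In the textbook account of G1, mitogenic signals raise the D cyclins, which bind and activate CDK4 and CDK6. These kinases phosphorylate RB and its relatives p107 (Rbl1) and p130 (Rbl2), which releases E2F transcription factors to switch on genes for DNA replication. INK4 proteins such as p16INK4a, from Cdkn2a, block CDK4 and CDK6. Blood lineages use different D cyclins, and E2F2, RB and cyclin D3 are known for roles in red cell precursors.

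Sequences around the transcript start are shown for Cdk4, Rbl1 and E2f2, whose windows held a motif of a known regulator. RefSeq windows on GRCm38.p6 that run from 250 bases before to 50 bases after a transcript start were at hand for 7 of the 10 genes, in 9 windows. The 6-base E-box CACGTG, the binding motif of MYC and its relatives, reads the same on both strands. It stood 4 times in the Cdk4 window, with first bases at -172, -118, -98 and -11 from the start. Of all 32851 windows of that length, 7.15% held at least 1 E-box and 0.0244% held 4 or more. The motif was also found once in the Cdk6 window, at -220 (sequence not shown), and in no other window of these genes. The E2F motif was searched on both strands as TTTCCCGC, TTTCGCGC, TTTGCCGC and TTTGGCGC, and stood in 2.26% of all windows. Among these genes it was found in Rbl1, beginning at -18, and in E2f2, beginning at 40 inside the transcript. A match is a run of letters and not a measured binding site. The Cdk4 stretch is chr10:127063345-127063534 on the plus strand, the Rbl1 stretch chr2:157204535-157204594 on the minus strand, and the E2f2 stretch chr4:136172294-136172323 on the plus strand. Capitals mark the E-boxes in Cdk4 and the E2F motifs in the others.
Cdk4: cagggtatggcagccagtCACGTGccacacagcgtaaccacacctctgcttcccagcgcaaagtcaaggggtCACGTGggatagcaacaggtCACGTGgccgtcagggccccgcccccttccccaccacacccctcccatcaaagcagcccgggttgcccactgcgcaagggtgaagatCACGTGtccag
Rbl1: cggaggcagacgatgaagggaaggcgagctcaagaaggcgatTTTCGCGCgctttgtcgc
E2f2: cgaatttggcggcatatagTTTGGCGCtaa

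Each array held 59305 non-control spots, of which between 51.5% and 55.6% were well above background by the scanner software's flag, and none was saturated. Levels below are scaled signals, that is, the processed signal divided by the 75th percentile of the array, so a level of 1 is the 75th percentile. Levels of different probes are not comparable. Repeated spots of the same probe within an array differed by a median SD of 0.04 log2 units on each of the 3 arrays. The p53 tumour and LSD1 tumour 3 shared a slide, and LSD1 tumour 2 was on another. Cell type markers were well above background on nearly all arrays: of 96 genes in 8 lists, 95 in the p53 tumour, against 95 in LSD1 tumour 2 and 93 in LSD1 tumour 3. Only Lum of the stromal list was not above background on any array. The spleen label is thus met by B cell, T cell, erythroid and macrophage markers in every tumour, and the labels name no tumour cell type.

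**Figure D1:**
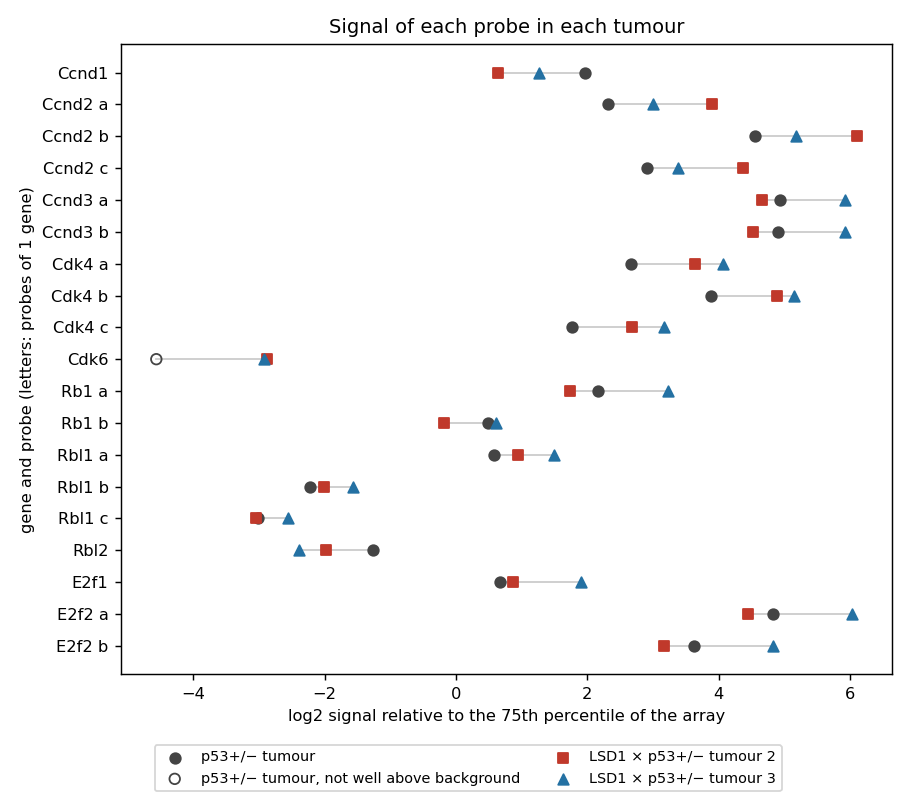
Scaled signal of each of the 19 probes in the 3 tumours, as log2 relative to the array's 75th percentile (horizontal axis), with 1 point per tumour and grey lines spanning the tumours; letters tell apart probes of 1 gene, in the order in which the text gives them. The p53 tumour is the lowest point for all Ccnd2 and Cdk4 probes, for E2f1 and for Cdk6, and the highest for Ccnd1 and Rbl2. The open circle of Cdk6 was not well above background. LSD1 tumour 3 is the highest for all probes of Ccnd3, Cdk4, Rb1, Rbl1, E2f1 and E2f2.

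The question put to the members was which of them differed between the genotypes beyond the spread of the 2 LSD1 tumours. With limma, fitted on 32889 probes with Benjamini-Hochberg adjustment, 0 of the 19 member probes passed an adjusted p of 0.05, and 0% of all probes did. Unadjusted p-values lay under 0.05 for 1 member probe, that of Cdk6, and for 1491 probes in all. The Cdk6 probe was not well above background in the p53 tumour and entered the fit only through the LSD1 tumours, where it was higher, so its p is no support for a difference. Without it, none of the 18 member probes above background on all 3 arrays had such a p. Variance modelled with a trend on signal also called 0 probes. With only 1 residual degree of freedom, the fit takes the lone p53 tumour to vary like the LSD1 tumours. An exact test on 3 labels could not go below a one-sided p of 0.333. Nothing below is therefore a change established between genotypes. Side and size are given as descriptions of these 3 arrays.

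By side alone, 10 of 19 member probes were higher in both LSD1 tumours than in the p53 tumour, against 36.6% of all probes. Lower in both were 2, against 32.2%. The 10 include the Cdk6 probe, which passed the filter only through the LSD1 tumours, so nothing is read from its place here or in the counts by gene. Among the 18 member probes above background on all 3 arrays, 9 were higher in both, and the share of all probes under that filter is not given here. Probes of 1 gene share their target, so the same is given by gene. Every probe was higher in both LSD1 tumours for 4 genes (Ccnd2, Cdk4, Cdk6 and E2f1), every probe was lower in both for 2 (Ccnd1 and Rbl2), and every probe was lower in LSD1 tumour 2 but higher in LSD1 tumour 3 for 3 (Ccnd3, Rb1 and E2f2). The side of E2f1 in LSD1 tumour 2 was lost in the authors' value table (-0.0028 log2), and 1 Rb1 probe turned in LSD1 tumour 3. The probes of Rbl1 were on different sides of the p53 tumour in LSD1 tumour 2. With 1 probe per gene, 5 of the 10 genes were higher in both, against 38.9% of all genes. Lower in both were 2 of the 10, against 27.8%. The counts by gene are near these shares, and nothing particular to the members is read from them. None of the 18 member probes above background on all 3 arrays was at least 2-fold higher in both. The Cdk6 probe was counted as such, but it passed the filter only through the LSD1 tumours, so nothing is read from its count beside the 3.63% of all probes of that size. None of the 19 was at least 2-fold lower in both, against 7.31%. The median difference over the 19 probes was 0.21 log2 units in LSD1 tumour 2 and 1.0 in LSD1 tumour 3, where the medians of all probes were 0.02 and 0.07.

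**Figure D2:**
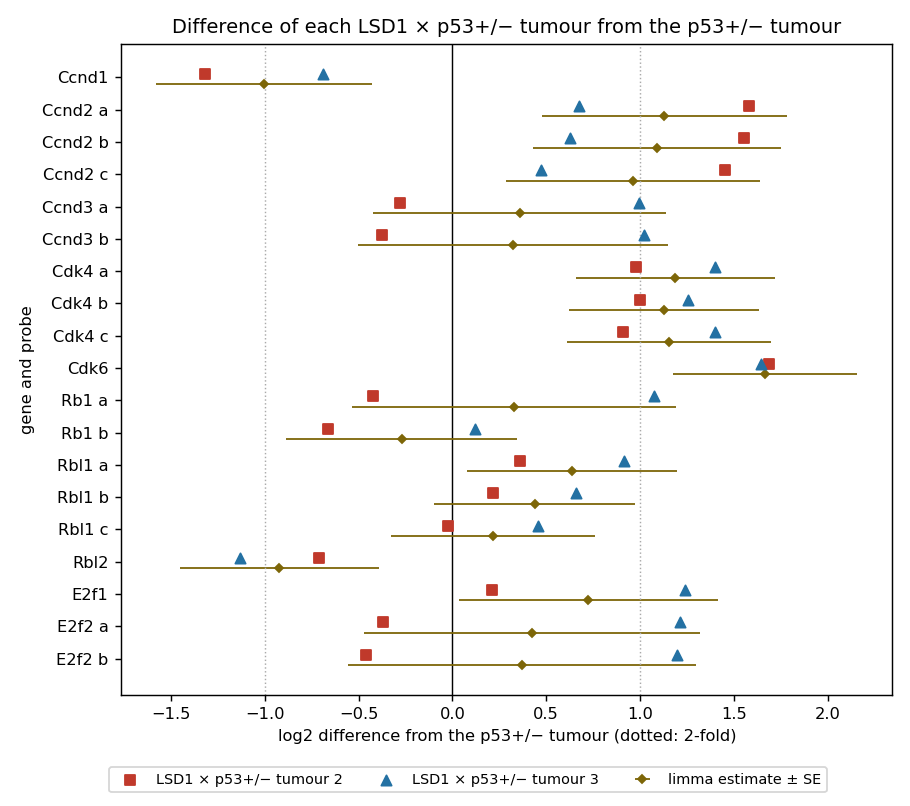
Log2 difference of LSD1 tumour 2 (squares) and LSD1 tumour 3 (triangles) from the p53 tumour for each of the 19 probes, with limma's estimate and standard error (diamonds with bars) and dotted lines at 2-fold. Squares and triangles lie on the same side of 0 for Ccnd1, Ccnd2, Cdk4, Cdk6, Rbl2 and E2f1 and on opposite sides for Ccnd3, Rb1 and E2f2.

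The 3 D cyclins had 3 different patterns. Ccnd2, the D cyclin used widely by lymphocytes, was higher in both LSD1 tumours and highest in LSD1 tumour 2. Its probe A_52_P53906 (Ccnd2 a in the plots) read 5.0 in the p53 tumour, against 15.0 in LSD1 tumour 2 and 7.98 in LSD1 tumour 3. Probe A_55_P2917114 read 23.6, 69.3 and 36.4 in the same order. Probe A_65_P18532, designed on a predicted transcript, read 7.55, 20.7 and 10.5. All 3 probes thus put the tumours in the same order, with LSD1 tumour 2 between 2.74-fold and 2.99-fold above the p53 tumour and LSD1 tumour 3 between 1.39-fold and 1.6-fold above it. The limma estimate for the first probe was 1.13 log2 units with a standard error of 0.65 (adjusted p = 0.892). Between the LSD1 tumours the Ccnd2 probes differed by 1.87-fold to 1.97-fold. With quantile normalization the difference of LSD1 tumour 3 shrank to between 0.04 and 0.31 log2 units.

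Ccnd1, a D cyclin of adherent and stromal cells that is low in most blood lineages, went the other way. Its single probe A_66_P111562 read 3.89 in the p53 tumour, against 1.56 in LSD1 tumour 2 and 2.41 in LSD1 tumour 3. This was 2.49-fold and 1.61-fold lower, and both LSD1 tumours lay below the p53 tumour under every scaling tried. The limma estimate was -1.0 with a standard error of 0.57 (adjusted p = 0.892). Endothelial markers were lower in both LSD1 tumours in 9 of 12 genes and stromal markers in 7 of 11, with summed levels of 20.5, 12 and 15.7 and of 106, 95.1 and 74.5 in the p53 tumour and LSD1 tumours 2 and 3. A summed level is led by its brightest probes: Sparc alone made up 56.5, 57.1 and 60.2 of the stromal sums. Their part in the Ccnd1 values was not tested. In these bulk arrays fewer cells of a type and less RNA per cell cannot be told apart.

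Ccnd3, the D cyclin of T cell and red cell precursors, separated the LSD1 tumours. Probe A_55_P2041075 read 30.6 in the p53 tumour, against 25.2 in LSD1 tumour 2 and 61.0 in LSD1 tumour 3. Probe A_55_P2918958 read 29.9, 23.0 and 60.8. LSD1 tumour 3 was 2.0-fold and 2.03-fold above the p53 tumour by these probes, and LSD1 tumour 2 was 1.21-fold and 1.3-fold below it. The p53 tumour lay between the LSD1 tumours, so the genotypes overlapped (limma, adjusted p = 0.954 and 0.962).

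Both kinase genes read higher in both LSD1 tumours, Cdk6 by a probe that was at background in the p53 tumour. Cdk4, the main D cyclin kinase of most dividing cells, has 3 probes. Probe A_55_P1998188 read 6.37 in the p53 tumour, against 12.5 in LSD1 tumour 2 and 16.8 in LSD1 tumour 3. Probe A_55_P2163143 read 14.8, 29.6 and 35.3, and probe A_55_P2166639 read 3.4, 6.4 and 8.99. Every probe gave the same order, with the p53 tumour lowest and LSD1 tumour 3 highest. LSD1 tumour 2 was 1.88-fold to 2.0-fold higher than the p53 tumour and LSD1 tumour 3 was 2.39-fold to 2.64-fold higher, which falls just short of the 2-fold mark in LSD1 tumour 2. The limma estimates were 1.13 to 1.19 log2 units with standard errors of 0.51 to 0.54 (adjusted p = 0.892 for each). The mean scaled log2 level of the first probe in the LSD1 tumours was 3.86 ± 0.30 (SD, n = 2), against 2.67 in the p53 tumour (n = 1). In the authors' value table and with quantile normalization the Cdk4 differences were smaller, between 0.64 and 1.11 log2 units, and on the same side in both tumours.

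Myc, whose product is known to act on Cdk4, was looked at after its values had been seen. Its 2 probes lay above the p53 tumour by 4.1-fold and 3.86-fold in LSD1 tumour 2 and by 2.16-fold and 2.83-fold in LSD1 tumour 3 (limma, adjusted p = 0.892 for both). Cdk4 and Myc were thus both above the p53 tumour in both LSD1 tumours, but Myc was highest in LSD1 tumour 2 and Cdk4 in LSD1 tumour 3. Any link between Myc, the E-boxes and the Cdk4 level was not tested.

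Cdk6, the D cyclin kinase of blood progenitors and lymphocytes, had a dim probe. A_66_P113861 read 0.0423 in the p53 tumour, where it was not well above background, 0.136 in LSD1 tumour 2 and 0.133 in LSD1 tumour 3. The LSD1 tumours were nearly equal. Set against the lowest signal well above background on the p53 array, Cdk6 was 2.52-fold higher in the LSD1 tumours on average (limma on the measured values, adjusted p = 0.892). This figure is not a lower bound, since the difference was smaller with normexp and with quantile normalization of the normexp values. With normexp background correction, which adds an offset of 50 and shrinks dim differences, Cdk6 was 0.65 and 0.67 log2 units higher. With quantile normalization it was 0.67 and 0.71 log2 units higher in LSD1 tumours 2 and 3. That setting starts from the same values with the offset, so it is not independent of normexp. In the authors' value table, without the offset, Cdk6 was 1.47 and 1.28 log2 units higher.

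Among the pocket proteins, Rbl2, whose product p130 is the pocket protein of resting cells, was lower in both LSD1 tumours. Probe A_52_P117325 read 0.417 in the p53 tumour, against 0.255 in LSD1 tumour 2 and 0.19 in LSD1 tumour 3. The LSD1 tumours lay 1.64-fold and 2.19-fold below the p53 tumour, under every scaling on the same side (limma estimate -0.92, standard error 0.53, adjusted p = 0.892). Rbl1, whose product p107 is made by dividing cells and is itself an E2F target, leaned the other way. Probe A_51_P286665 read 1.5, 1.92 and 2.83 in the p53 tumour and LSD1 tumours 2 and 3, which is 1.28-fold and 1.89-fold higher. Probe A_55_P2024773 read 0.214, 0.249 and 0.339, and probe A_55_P2601922 read 0.124, 0.122 and 0.17. All 3 Rbl1 probes put LSD1 tumour 3 highest. The last probe differed between LSD1 tumour 2 and the p53 tumour by -0.024 log2 units, less than the 0.04 by which spots of the same probe varied.

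Rb1, which encodes RB itself, has 2 probes that disagreed in size. Probe A_51_P136888 read 4.46 in the p53 tumour, against 3.33 in LSD1 tumour 2 and 9.41 in LSD1 tumour 3. Probe A_55_P2638217 read 1.4, 0.886 and 1.53. Both put LSD1 tumour 2 lowest and LSD1 tumour 3 highest, but LSD1 tumour 3 was 2.11-fold above the p53 tumour by the first probe and 1.09-fold by the second. The second probe turned to the other side in the authors' value table (-0.24 log2) and after quantile normalization (-0.032 log2). The genotypes overlapped at both probes, with adjusted p-values of 0.963 and 0.957 from limma. Both probes are assigned to the same transcript, so the files do not tell which part of the gene they differ in.

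E2f1 and E2f2 encode activating E2Fs. E2f1, at probe A_55_P2317665, read 1.59 in the p53 tumour, against 1.84 in LSD1 tumour 2 and 3.74 in LSD1 tumour 3. It was 1.16-fold higher in LSD1 tumour 2, a difference that vanished in the authors' value table, and 2.36-fold higher in LSD1 tumour 3 (limma estimate 0.73, standard error 0.69, adjusted p = 0.898). E2f2 probe A_51_P368009 read 28.3, 21.9 and 65.7 in the same order, and probe A_66_P108394 read 12.4, 9.02 and 28.5. E2f2 was thus 2.32-fold and 2.3-fold above the p53 tumour in LSD1 tumour 3 and 1.29-fold and 1.37-fold below it in LSD1 tumour 2 (limma, adjusted p = 0.954 and 0.962).

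Between the LSD1 tumours themselves, 14 of the 19 member probes were higher in LSD1 tumour 3, against 50.5% of all probes, and 5 in LSD1 tumour 2, against 49.5%. At least 2-fold higher in LSD1 tumour 3 were 6 probes, both of Ccnd3, both of E2f2, the single probe of E2f1 and 1 of Rb1, where 12.6% of all probes reached that size. None was 2-fold higher in LSD1 tumour 2, against 12.4%. Quantile normalization and the authors' value table put the 3 Ccnd2 probes past 2-fold there, and normexp 2 of them. The widest gap was in E2f2, at 3.0-fold and 3.16-fold, followed by Rb1 at 2.82-fold by the first probe and Ccnd3 at 2.42-fold and 2.64-fold. With 1 array each, these gaps have no test. The Ccnd2 gap had the opposite sign to the gaps of Ccnd3, Rb1 and E2f2 under every scaling tried. The LSD1 tumours were on different slides, so slide and tumour cannot be told apart in any gap between them.

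Markers of blood lineages also differed between the LSD1 tumours. All 12 erythroid markers were higher in LSD1 tumour 3 than in LSD1 tumour 2, with median differences from the p53 tumour of 1.57 and -0.23 log2 units. Their summed level was 230 in the p53 tumour, against 174 in LSD1 tumour 2 and 506 in LSD1 tumour 3, and none was at background. This is the order of tumours seen for Ccnd3, E2f2 and Rb1. Rb1 probe A_55_P2638217 lost that order in the authors' value table and with quantile normalization. The order is not particular to erythroid markers, since the megakaryocyte medians were -0.23 in LSD1 tumour 2 and 0.12 in LSD1 tumour 3. Of 12 T cell markers, 10 were higher in LSD1 tumour 2 than in LSD1 tumour 3, with medians of 1.81 and -1.33 and summed levels of 96.7, 263 and 52.5 in the p53 tumour and LSD1 tumours 2 and 3. Cd8a and Cd2 were the exceptions, and Trat1 was not well above background in LSD1 tumour 3. Ccnd2 was likewise highest in LSD1 tumour 2, although the p53 tumour and not LSD1 tumour 3 was lowest. All 12 B cell markers were below the p53 tumour in both LSD1 tumours, with summed levels of 309, 44.2 and 155. Of these 12, 10 were higher in LSD1 tumour 3 than in LSD1 tumour 2. So were 9 of 12 endothelial and 9 of 12 megakaryocyte markers. The B cell marker Fcer2a was not well above background in LSD1 tumour 3. Neutrophil and precursor markers had medians of 1.21 and 1.17, summed levels of 260, 408 and 373, and 10 of 12 genes higher in both. The part of these cell types in the member values was not tested.

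**Figure D3:**
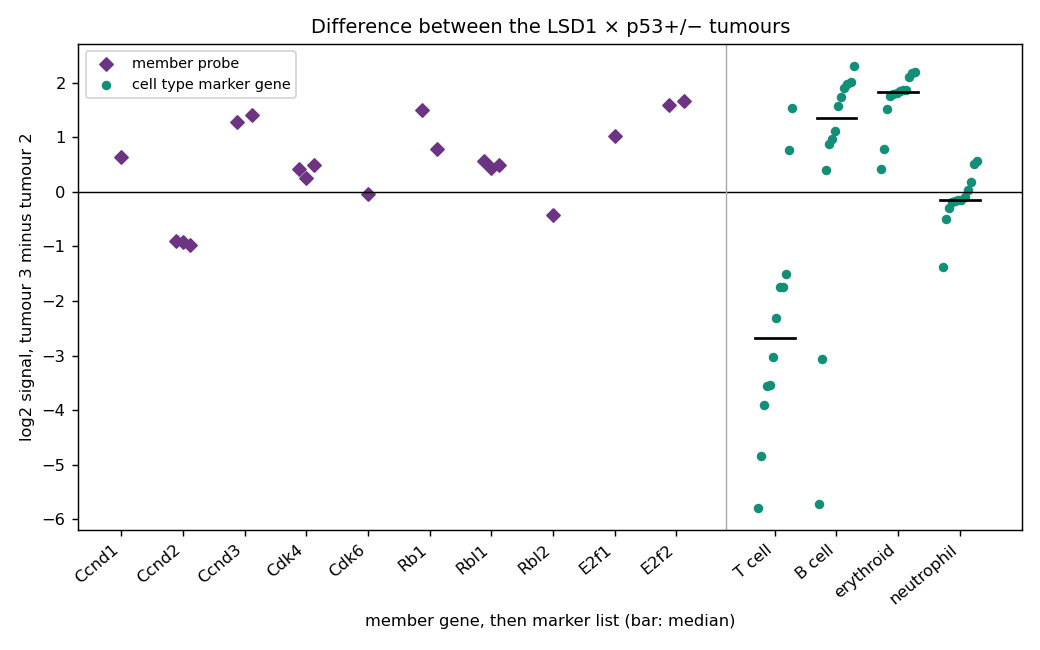
Log2 signal of LSD1 tumour 3 minus LSD1 tumour 2 for each member probe (diamonds) and for the genes of 4 marker lists (points, bars at the list median). Ccnd1, Ccnd3, Cdk4, Rb1, Rbl1, E2f1 and E2f2 lie above 0, Ccnd2 and Rbl2 below it, and Cdk6 just below it. All erythroid markers and 10 of 12 B cell markers lie above 0, and 10 of 12 T cell and 8 of 12 neutrophil markers below it.

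The rest of the G1 pathway was described with 6 lists of 55 genes, each gene by its brightest probe. These lists too were chosen with earlier results of these data known. None of the 55 genes passed limma's adjusted threshold, and 5 had an unadjusted p under 0.05, where 557 of all 15240 genes did. Of the 55 genes, 42 (Ccne2 included, which was at background in the p53 tumour and LSD1 tumour 2) were higher in both LSD1 tumours, against 38.9% of all genes tested, and 6 lower in both, against 27.8%. At least 2-fold higher in both were 10 of 55, against 3.48% of all genes, and none was 2-fold lower in both, against 5.38%. Of the 10 members taken in the same way, 5 were higher (Cdk6 included, which was at background in the p53 tumour) and 2 lower in both. Of the same 10, 7 were higher in LSD1 tumour 3 than in LSD1 tumour 2, where 55.8% of all genes were. The median difference of all genes was 0.05 in LSD1 tumour 2 and 0.16 in LSD1 tumour 3.

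Among the 8 other E2F and DP genes, 6 were higher in both LSD1 tumours and none lower in both (5 and 1 in the authors' value table, 5 and none with quantile normalization), and the medians were 0.40 and 1.36 log2 units in LSD1 tumours 2 and 3. Tfdp1, the DP partner that E2Fs need to bind DNA, read 1.06 in the p53 tumour, against 2.92 in LSD1 tumour 2 and 3.02 in LSD1 tumour 3. E2f4, the repressor E2F that pairs with p107 and p130, was 2.02-fold and 2.31-fold higher, and the activator E2f3 was 1.36-fold and 2.96-fold higher. E2f7, an atypical repressor E2F, was 1.89-fold and 2.9-fold higher by its brighter probe but by 0.52 and 0.04 log2 units by the other. E2f5 and Tfdp2, named after their values were seen, were lower in LSD1 tumour 2 (-0.38 and -0.45 log2), but the other Tfdp2 probe was 0.098 log2 units higher there.

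The cyclin E and CDK2 arm, which completes RB phosphorylation, was higher in both LSD1 tumours in all 6 of its genes that were above background on all 3 arrays (5 of 6 by the authors' value table). The medians over all 7 genes were 1.2 and 1.63. Skp2, which targets the CDK inhibitor p27 for destruction, read 0.287, 0.763 and 0.897 in the p53 tumour and LSD1 tumours 2 and 3. Its cofactor gene Cks1b was 2.38-fold and 3.1-fold higher, the CDK phosphatase gene Cdc25a 2.37-fold and 1.94-fold, and the S phase cyclin gene Ccna2 1.35-fold and 3.0-fold. The other gene, Ccne2, was well above background in LSD1 tumour 3 alone and is not counted.

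Of 7 CDK inhibitor genes, 4 were higher in both LSD1 tumours and none lower in both (3 and 1 in the authors' value table, 4 and 1 with quantile normalization), and the medians were 0.56 and 1.02. Cdkn2a, the source of the CDK4 and CDK6 inhibitor p16INK4a and of p19ARF, read 0.123 in the p53 tumour, against 25.2 in LSD1 tumour 2 and 23.5 in LSD1 tumour 3. The neighbouring inhibitor gene Cdkn2b read 0.175, 0.343 and 1.08. Cdkn2c, which encodes p18INK4c, was 1.48-fold and 2.87-fold higher, and Cdkn2d, which encodes p19INK4d, differed by -0.05 and 1.02 log2 units. Cdkn2a and the kinase gene Cdk4 were thus both higher in both LSD1 tumours. The other Cdkn2a probe was higher by 6.48 and 6.46 log2 units in LSD1 tumours 2 and 3. Whether the Cdkn2a signal came from the transcript of p16INK4a or from that of p19ARF was not tested. These values are therefore not a measure of p16INK4a.

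The DREAM and MuvB list holds subunit genes of the complex through which p107 and p130 silence cell cycle genes in resting cells. It also holds Mybl2 and Foxm1, which are not part of that silencing form. Both LSD1 tumours were above the p53 tumour for 5 of the 7 genes, Mybl2 and Foxm1 among them. Below it were 2, the subunit genes Lin37 (-0.64 and -0.07 log2) and Lin52 (-0.59 and -0.55), named after their values were seen. The counts were 4 and 2 by the authors' value table, and the medians were 0.39 and 0.89. The subunit gene Lin9 was 1.78-fold and 1.87-fold higher by its brighter probe but by 0.41 and 0.18 log2 units by the other, and Lin54 1.31-fold and 1.85-fold. Mybl2, which replaces p130 on the complex in dividing cells, read 5.58, 6.05 and 17.4 in the p53 tumour and LSD1 tumours 2 and 3, and the mitotic factor gene Foxm1 read 1.18, 3.65 and 3.49. The other Foxm1 probe was higher by 1.83 and 2.33 log2 units.

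Classical E2F targets were higher in both LSD1 tumours in 16 of 18 genes and lower in both in none, counts that also held in the authors' value table, with quantile normalization and with normexp. Their medians were 0.61 in LSD1 tumour 2 and 1.5 in LSD1 tumour 3, and 17 of the 18 were higher in LSD1 tumour 3 than in LSD1 tumour 2. Cdc45, whose product is a cofactor of the replication helicase, read 0.253 in the p53 tumour, against 0.708 in LSD1 tumour 2 and 1.2 in LSD1 tumour 3. The helicase subunit gene Mcm2 read 3.71, 10.5 and 9.66. Orc1, of the origin recognition complex, read 0.942, 1.82 and 3.02, and the thymidylate synthase gene Tyms 5.08, 10.1 and 15.4, in the p53 tumour and LSD1 tumours 2 and 3. Cdc6 and Rrm2, named after their values were seen, were at the level of the p53 tumour in LSD1 tumour 2 and 3.07-fold and 2.56-fold above it in LSD1 tumour 3.

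**Figure D4:**
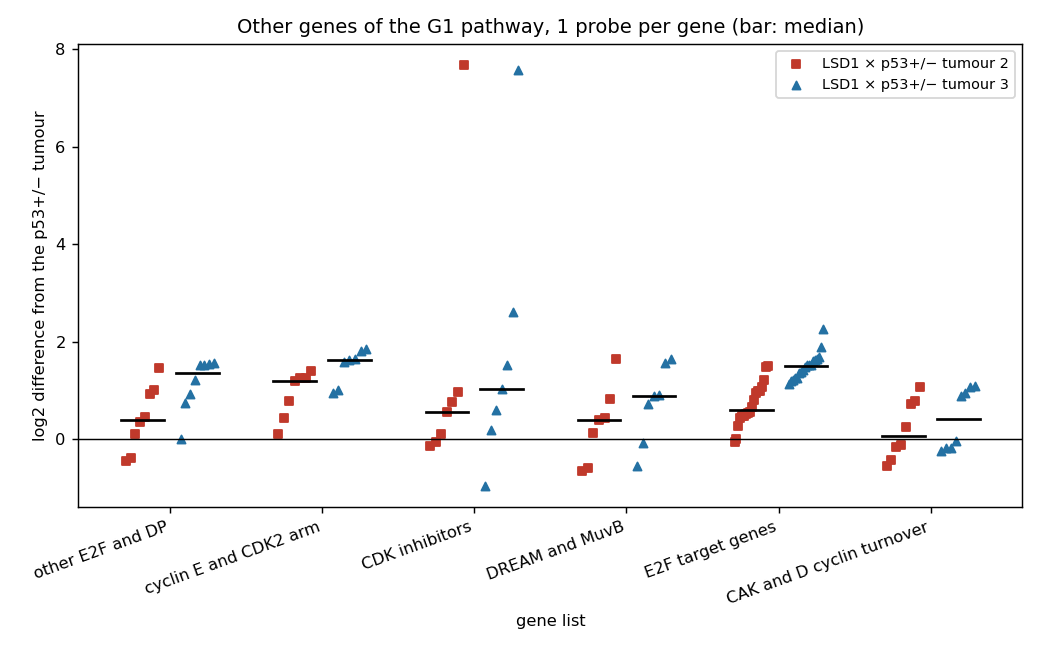
Log2 difference from the p53 tumour for each gene of 6 lists of the G1 pathway in LSD1 tumour 2 (squares) and LSD1 tumour 3 (triangles), 1 probe per gene, with bars at the medians. E2F targets and the cyclin E and CDK2 arm lie almost wholly above 0, with medians of 0.61 and 1.5 (18 genes) and of 1.2 and 1.63 (7 genes, Ccne2 at background on 2 arrays included), and the points near 7.6 are Cdkn2a.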

How the data were processed

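Each tumour's Cy3-labelled total RNA was run on its own array, as the labels' protocols describe. The authors deposited scans read with Feature Extraction 11.5.1.1, per the submitters' processing notes. Its processed signal, a linear intensity, had local background removed and a spatial trend corrected, per the file headers. The deposited value table held the same intensity times 1 factor per array (1.06, 0.779 and 0.902 for the p53 tumour and LSD1 tumours 2 and 3). What set those factors is not given in the sources used here, and the column medians were 64.2, 54.2 and 43.5. Per-spot flags for background, saturation and outliers (other values) were deposited too.

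Here the processed signal was divided by the array's 75th percentile over non-control spots (608, 712 and 554) and log2-transformed. Spots with an outlier flag were dropped, and replicate spots averaged per probe. Of 56605 non-control probes, 32994 were named through RefSeq accessions (gene table of GRCm38.p6; the array design is on mm9, so only promoter windows carry coordinates). Of the 56605 probes, named or not, 32889 passed the background flag on 1 array or more and entered the fit. The fit used limma 3.58.1 under R 4.3.3, with lmFit then eBayes (3.34 degrees of freedom with the prior). Only the limma step, and not the scaling, filtering or naming, had been tested beforehand on simulated data. The number of arrays limits the precision. P-values measure only the spread between these samples.

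Named genes were all members, up to 4 per pathway list with the largest mean difference among those above background on all 3 arrays, and Cdkn2a and Cdkn2b. Members and lists were chosen with earlier results of these data known. Alternatives were normexp on the deposited median spot and background intensities (offset 50), quantile normalization of those values, the authors' value table, other filters on dim probes, 1 probe per gene, the slide as a block and each LSD1 tumour left out.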

Additional observations from a re-analysis of the deposited data

How the results depend on the processing

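None of the settings that allow a limma test called a member probe or any probe, the slide block leaving no residual degrees of freedom, and member adjusted p-values ranged from 0.466 to 0.997 over the alternatives. Filters on dim probes leave the differences themselves as they are. Of the 57 member differences recomputed with quantile normalization, normexp or the authors' value table, 53 kept their sign and 4 did not. The mean difference turned for both Ccnd3 probes (-0.062 and -0.13) and 1 E2f2 probe (-0.020) with quantile normalization, for 1 Rbl1 probe in the authors' value table (-0.073), and for 1 Rb1 probe with the slide as a block (0.12), which equals LSD1 tumour 3 against the p53 tumour. With 1 LSD1 tumour left out, the difference ranged from -0.28 to 1.0 and -0.38 to 1.02 for the Ccnd3 probes, from -0.42 to 1.08 and -0.66 to 0.12 for Rb1, from -0.024 to 0.46 for the last Rbl1 probe, and from -0.37 to 1.22 and -0.46 to 1.20 for E2f2. The second Rb1 probe turned without LSD1 tumour 2 and the others without LSD1 tumour 3. The 1 member probe at least 2-fold higher in both tumours became 0 with quantile normalization, with normexp and among probes above background on all 3 arrays. The count at least 2-fold lower in both became 1 in the authors' value table. With 1 probe per gene, 5 genes, Cdk6 among them, were higher in both. The slide as a block counts LSD1 tumour 3 alone: 9 probes at least 2-fold higher, 1 at least 2-fold lower and 17 higher. At least 2-fold higher in LSD1 tumour 2 than 3 were 3 in the authors' value table, 3 after quantile normalization, and 2 with normexp. Leaving out 1 LSD1 tumour gave 4 to 9 probes 2-fold higher, 1 probe 2-fold lower in each case, 10 to 17 higher and 2 to 9 lower, counts that then rest on 1 tumour. The authors' value table moves the median difference of all probes from 0.02 and 0.07 to -0.19 and -0.29, and its split of all probes on 1 side in both tumours is 7191 higher and 15109 lower, against 12022 and 10590. The members split 9 and 3 there. The lone p53 tumour could not be left out. No paired analysis was possible, since there was only 1 p53 tumour and the labels match it to neither LSD1 tumour.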

Other observations

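The CDK activating kinase and the factors that fold or destroy D cyclins and their kinases were split in direction. Of 8 such genes, 4 lay above and 4 below the p53 tumour in both LSD1 tumours, with medians of 0.07 and 0.42 log2 units in LSD1 tumours 2 and 3, and with the same counts under every scaling tried. The higher ones were the 3 subunit genes of the kinase that phosphorylates CDKs in their activation loop, and Cdc37, whose product helps fold CDK4. Mnat1 read 0.776, 1.62 and 1.5 in the p53 tumour and LSD1 tumours 2 and 3, Ccnh was 1.65-fold and 2.1-fold higher, Cdk7 1.19-fold and 2.12-fold, and Cdc37 1.73-fold and 1.84-fold. The lower ones, Gsk3b, Fbxo4, Fbxo31 and Ambra1, are known for the turnover of D cyclins, and were named after their values were seen. Gsk3b read 5.81, 3.94 and 4.89, and the other 3 differed from the p53 tumour by between -0.42 and -0.04 log2 units. None of the 8 passed limma's adjusted threshold or an unadjusted p of 0.05.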
